A study of Mus musculus with 82 samples.

Results

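The genes of oxidative phosphorylation were followed in sorted retinal ganglion cells (RGCs) and in superior colliculi (SC) of mice with experimental ocular hypertension (OHT) and chronic stimulation of the colliculus. Members were the protein-coding genes whose symbols name a subunit of respiratory complexes I to V, and 97 of the 43629 gene identifiers of each count table met this rule. Of these, 84 lie in the nuclear genome (37 of complex I, 4 of complex II, 8 of complex III, 18 of complex IV and 17 of complex V) and 13 in the mitochondrial genome (7, 1, 3 and 2 of complexes I, III, IV and V). A further 10 symbols of the same form belong to pseudogenes and were left out. All members but 2 in RGCs (*Cox8b*, *Cox8c*) and 1 in SC (*Cox8c*) had a read.

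Samples came from mice of either sex, about 10 weeks of age by their labels, bred from Vglut2-ires-Cre and Thy1-STOP-YFP lines, in which YFP marks RGCs. The paper's schedule makes them older, since vectors were injected at 5 weeks of age and OHT, induced later, lasted 5 weeks. Each sample was 1 retina or 1 SC. Every mouse received CNO, the ligand of the designer receptor, and an AAV in the SC whose CaMKIIα promoter drove the excitatory receptor hM3D(Gq) (“SHAM+DREADD”, “OHT+DREADD”) or only mCherry (“SHAM”, “OHT”). OHT was induced with microbeads in the right eye, sham eyes received vehicle, and tissue was taken after 5 weeks. In each tissue there were 10 “SHAM”, 11 “OHT”, 10 “SHAM+DREADD” and 10 “OHT+DREADD” samples, and no label says that samples of different groups were paired.

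Oxidative phosphorylation takes place in the inner mitochondrial membrane. Complex I (NADH dehydrogenase) and complex II (succinate dehydrogenase) pass electrons to ubiquinone, complex III hands them to cytochrome c and complex IV (cytochrome c oxidase) to oxygen. Complexes I, III and IV pump protons, and complex V (ATP synthase) uses the gradient to make ATP. Subunits of complex II are all encoded in the nucleus, whereas the other complexes combine nuclear and mitochondrially encoded subunits. RGCs are known for a high energy demand, since their axons are unmyelinated and rich in mitochondria within the retina, and inherited faults of complex I cause optic neuropathy in humans.

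The nuclear subunits are scattered over the chromosomes, and their promoters are known to hold sites for NRF1, for ETS factors such as GABP, and for YY1. Promoter windows of 300 bases, 250 before and 50 after the start site, were taken from RefSeq for the build GRCm38.p6, and all 84 nuclear members matched, of which 68 had such a window. The letters GCATGCG, a core of the NRF1 site, were found on either strand in 11 of these 68 members (16.2%) against 4.96% of 17492 protein-coding genes. The letters CCGGAAG, an ETS core, were found in 16 (23.5% against 12.9%), and AAGATGG, a YY1 core, in 11 (16.2% against 7.18%). TATAAA was found in 7 (10.3% against 14.8%). At least 1 of the NRF1, ETS and YY1 cores was present in 31 members (45.6% against 22.6%), and all of them in a window of *Atp5j* alone among the members. Capitals mark these cores, and adjacent matches on both strands run together. Shown are *Sdhb*, *Cox6a1* and *Sdhd*, the nuclear members of lowest p with a higher level in OHT+DREADD than in OHT RGCs, and *Atp5j*, which codes for a coupling factor of complex V.
*Sdhb*, chr4:140961021-140961320, + strand: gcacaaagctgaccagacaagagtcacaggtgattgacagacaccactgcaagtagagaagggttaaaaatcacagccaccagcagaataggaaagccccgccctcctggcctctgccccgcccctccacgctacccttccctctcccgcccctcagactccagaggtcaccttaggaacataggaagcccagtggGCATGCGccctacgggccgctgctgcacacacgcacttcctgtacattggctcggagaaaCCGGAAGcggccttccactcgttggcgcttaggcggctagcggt
*Cox6a1*, chr5:115348909-115349208, − strand: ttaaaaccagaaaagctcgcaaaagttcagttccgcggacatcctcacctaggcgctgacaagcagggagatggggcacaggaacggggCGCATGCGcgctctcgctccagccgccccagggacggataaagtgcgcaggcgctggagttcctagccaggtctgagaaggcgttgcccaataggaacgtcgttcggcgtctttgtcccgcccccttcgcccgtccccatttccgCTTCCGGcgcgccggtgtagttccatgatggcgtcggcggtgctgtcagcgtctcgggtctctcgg
*Sdhd*, chr9:50603800-50604099, − strand: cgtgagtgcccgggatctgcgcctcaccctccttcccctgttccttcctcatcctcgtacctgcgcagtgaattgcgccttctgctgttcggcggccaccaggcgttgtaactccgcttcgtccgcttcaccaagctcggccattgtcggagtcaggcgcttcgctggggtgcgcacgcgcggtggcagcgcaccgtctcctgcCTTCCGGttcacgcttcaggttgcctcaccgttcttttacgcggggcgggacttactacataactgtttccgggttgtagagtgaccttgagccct
*Atp5j*, chr16:84834927-84835226, − strand: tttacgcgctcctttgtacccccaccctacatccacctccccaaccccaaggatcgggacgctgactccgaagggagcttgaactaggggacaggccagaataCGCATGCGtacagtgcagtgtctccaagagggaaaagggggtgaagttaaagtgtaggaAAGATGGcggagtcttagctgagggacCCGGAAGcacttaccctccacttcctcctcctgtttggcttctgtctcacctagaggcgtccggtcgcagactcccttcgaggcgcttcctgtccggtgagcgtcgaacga
A match describes the letters of the window and is not a bound site.

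The mitochondrially encoded members have close copies in the nuclear genome, and reads with several alignments were discarded before counting. In windows of 50 bases, 100% of *mt-Co2*, 99.9% of *mt-Co3*, 99.5% of *mt-Atp6*, 98.8% of *mt-Nd4l* and 98.0% of *mt-Nd3* recurred in another annotated gene of mm10. The share was 62.2% for *mt-Nd4*, 51.1% for *mt-Co1*, 8.19% for *mt-Nd2* and 7.61% for *mt-Nd5*, and it was 0 for *mt-Nd1*, *mt-Cytb*, *mt-Nd6* and *mt-Atp8*. The copy of *mt-Co2* (chrM:7013-7696, + strand) is *Gm28661* on chromosome 1, which had 0 differences over 681 bases. The copy of *mt-Nd3* (chrM:9459-9806, + strand), *Gm28438* on chromosome 1, had 1 difference over 345 bases. The first 60 bases of each pair are shown from GENCODE M21 for mm10, since a short read from them fits both places, and the capital marks the base that differs.
*mt-Co2*: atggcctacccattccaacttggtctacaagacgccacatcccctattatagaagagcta
*Gm28661*, chr1:24614885-24615565, − strand: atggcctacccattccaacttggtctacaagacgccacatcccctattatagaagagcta
*mt-Nd3*: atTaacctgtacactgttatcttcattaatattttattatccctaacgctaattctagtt
*Gm28438*, chr1:24612775-24613119, − strand: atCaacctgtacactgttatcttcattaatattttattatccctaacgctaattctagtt

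Library totals were 3534776 to 6889040 counts in RGCs (median 5107338) and 1766207 to 4239835 in SC (median 2926193). RGC libraries were made with Smart-Seq2, which covers whole transcripts, and SC libraries with QuantSeq, which reads the 3′ end, so that tissue and kit cannot be told apart. In the sorted samples, 41 of 41 libraries held more rod than RGC marker counts: rod markers summed to 12270 to 115500 CPM (counts per library, scaled with TMM factors), whereas RGC markers summed to 339.5 to 1589 CPM. *Rbpms*, an RGC marker, had a median of 9.70 CPM, and these samples are called RGCs by their label alone. SC libraries held 5.23 to 29.7 CPM of rod markers and 3392 to 12620 CPM of oligodendrocyte markers. By *Xist* against Y-linked genes, all 10 SHAM+DREADD mice were female in both tissues, as were 5 of the 10 OHT+DREADD mice, but 2 of the 10 SHAM and 2 of the 11 OHT mice, so that sex and group moved together. In all of these bulk samples, fewer cells of a type and less RNA per cell cannot be told apart.

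Nuclear members were expressed over a wide range in RGCs. Their mean levels ran from 0 to 2913 CPM (median 202.7 CPM, 84 members), and levels between genes were compared per kilobase of exon. The highest per length was *Cox6b1*, a small complex IV subunit on the intermembrane side, at 830 CPM per kilobase. *Cox8a* and *Cox6a1*, other small subunits of complex IV, followed at 709 and 696, then *Atp5b*, the catalytic beta subunit of complex V, at 687. The leading member of complex III was *Uqcr10* with 568.1 CPM per kilobase, that of complex I by its symbol was *Ndufa4* with 522, and that of complex II was *Sdha*, the flavoprotein that oxidizes succinate, with 234. Ndufa4 was first assigned to complex I and is now known as a complex IV subunit. Without regard to length, *Atp5b* gathered the most reads of the nuclear members (2913 ± 587 CPM, SD, n = 41).

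In SC, where a transcript gives about 1 tag whatever its length, nuclear members had mean levels of 0 to 823 CPM (median 164 CPM). *Atp5g3*, a gene for the membrane ring of complex V, led with 823 ± 67.9 CPM (SD, n = 41), followed by *Atp5b* with 768 and *Atp5a1*, the alpha subunit, with 657 CPM. The leading members of the other complexes were *Cox6c* of complex IV with 595, *Uqcrh*, the hinge protein of complex III, with 494, *Ndufb5* of complex I with 321 and *Sdha* of complex II with 248 CPM. The neighbours *Atp5g3* and *Atp5b* overlapped over libraries (667.5 to 1050 and 631 to 953.5 CPM). *Atp5g1*, *Atp5g2* and *Atp5g3* code for the same mature ring protein, and *Atp5g3* was the most abundant of them in both tissues: in SC *Atp5g1* stood at 35.9 and *Atp5g2* at 16.04 CPM. In RGCs, *Atp5g3*, *Atp5g1* and *Atp5g2* stood at 137, 10.7 and 4.52 CPM per kilobase. The rank orders of the members in RGCs (per kilobase) and SC had a Spearman correlation of 0.596 over the 84 nuclear members, which are not independent replicates.

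Several mitochondrially encoded members stood at very different levels in the 2 sets of libraries. In RGCs, *mt-Cytb*, the cytochrome b of complex III, had a mean of 40480 CPM and *mt-Nd1*, a membrane subunit of complex I, of 16530 CPM. In SC the corresponding means were 19640 and 16600 CPM, and *mt-Nd4*, another proton-pumping subunit of complex I, stood highest with 37530 CPM against 4090 in RGCs. Catalytic subunits of complex IV split apart: *mt-Co1* had 8802 CPM in RGCs and 9051 in SC, whereas *mt-Co2* had 15.3 against 6411 and *mt-Co3* 23.2 against 4512 CPM. The other members that were low in RGCs were *mt-Atp6* (40.2 against 7379 CPM), *mt-Atp8* (2.44 against 303), *mt-Nd3* (0.826 against 1608) and *mt-Nd4l* (0.570 against 300). *mt-Nd2* had 1099 against 18580 CPM and *mt-Nd5* 1666 against 3099 CPM. *mt-Nd6*, the only one of these genes on the light strand, went the other way, with 391 CPM in RGCs and 76.8 in SC.

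The 5 genes with a nearly complete nuclear copy were thus at 0.570 to 40.2 CPM in RGCs, but at 300 to 7379 CPM in SC, where the same copies exist. Reads were also counted on the copies: *Gm10925*, the copy of *mt-Atp6*, had a median of 1230 CPM in RGCs and 121 in SC, *Gm28437*, the copy of *mt-Co3*, 954 and 155, and *Gm28661*, the copy of *mt-Co2*, 284 and 96.2 CPM. *mt-Atp8* was low in RGCs too, and it had no window shared with another annotated gene. Only annotated genes were searched. *mt-Atp8* lies between *mt-Co2* and *mt-Atp6*, whose copies are both on chromosome 1, and the stretch between these copies was not compared with it. The annotated model of *mt-Atp8* overlaps that of *mt-Atp6* by 43 bases. The part of shared sequence, of overlapping models and of the library kit in these levels was not tested. By the paper's account, only uniquely placed reads were kept. The counts do not show how reads from stretches identical to a copy were placed.

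**Figure D1:**
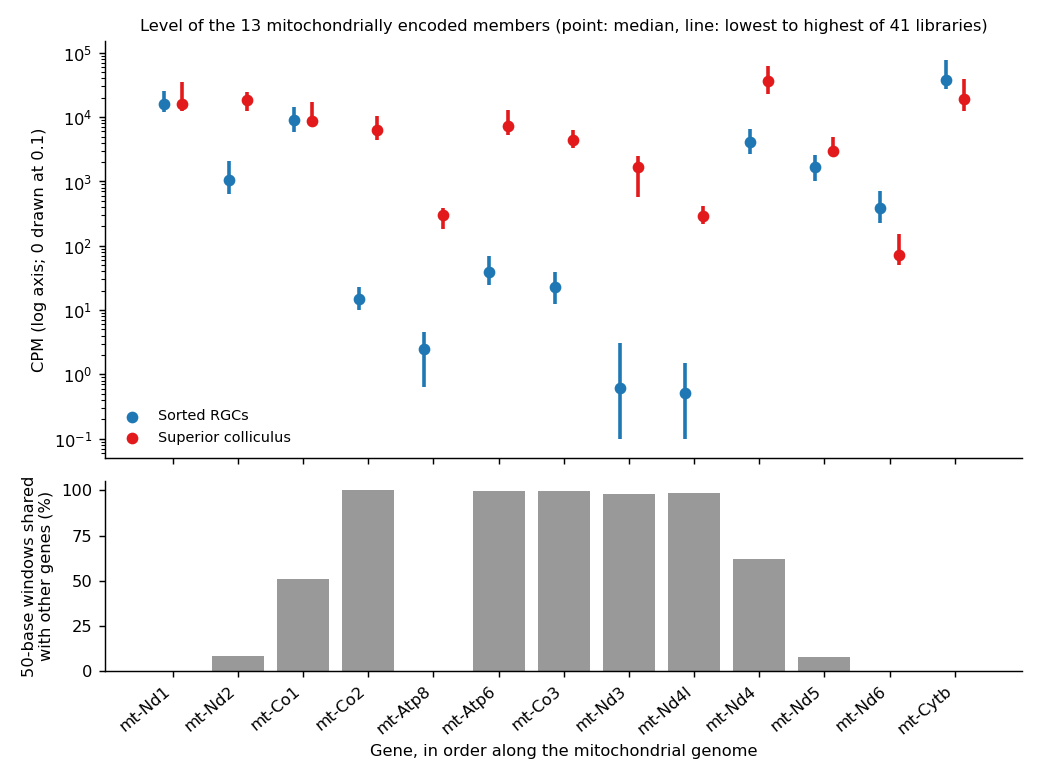
Upper panel: level in CPM on a log axis of the 13 mitochondrially encoded members in RGC and SC libraries, with the median as a point and a line from the lowest to the highest of 41 libraries. Lower panel: percent of the 50-base windows of each gene that recur in another annotated gene. *mt-Co2*, *mt-Co3*, *mt-Atp6*, *mt-Nd3* and *mt-Nd4l* recur to 98.0% or more and are at 0.570 to 40.2 CPM on average in RGCs.

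Isoforms that are known from other tissues were sparse beside their common partners. *Cox4i2*, a lung and hypoxia-linked form of subunit 4 that is also a marker of pericytes, had 2224 reads over the 41 RGC libraries, 1.05% of the reads of *Cox4i1* and *Cox4i2* together, and 174 reads in SC (0.257%). *Cox6b2*, known from testis, took 5.26% of its pair in SC with 2257 reads, and had a read in 19 RGC libraries (185 reads). The muscle forms *Cox7a1* and *Cox6a2* had 575 and 220 reads in SC and 210 and 121 in RGCs. *Cox7b2*, of testis, had 24 reads in 2 RGC libraries and 108 reads in SC, and *Cox8b*, of muscle, had 0 and 16 reads. *Ndufa4l2*, a hypoxia-induced relative of *Ndufa4*, had 56 reads in 6 RGC libraries and 83 in SC.

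As a share of all counts, the nuclear members had similar medians in all groups. In RGCs, the median share was 2.67% in SHAM (2.24 to 2.96%), while OHT had 2.66% (2.44 to 2.94%), SHAM+DREADD 2.71% (2.05 to 2.87%) and OHT+DREADD 2.63% (2.06 to 2.92%). In SC it was 1.66% (1.48 to 1.83%), 1.69% (1.56 to 1.81%), 1.72% (1.58 to 1.93%) and 1.66% (1.56 to 2.25%) in the same order. These ranges overlapped between all groups of a tissue.

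Mitochondrially encoded members took a larger share, with wider ranges. In RGCs, medians were 7.00% in SHAM (5.93 to 10.7%), 6.88% in OHT (5.85 to 7.75%), 6.69% in SHAM+DREADD (5.73 to 9.25%) and 7.63% in OHT+DREADD (6.48 to 9.27%). In SC, medians were 12.2% (11.2 to 13.7%), 12.4% (10.3 to 13.6%), 12.4% (11.2 to 16.4%) and 12.7% (10.2 to 19.3%). The SC highest of all, OHT+DREADD replicate 9, held 19.3% and also the highest nuclear share, 2.25%, and its oligodendrocyte markers summed to 12620 CPM against a median of 5926 CPM over all SC libraries.

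**Figure D2:**
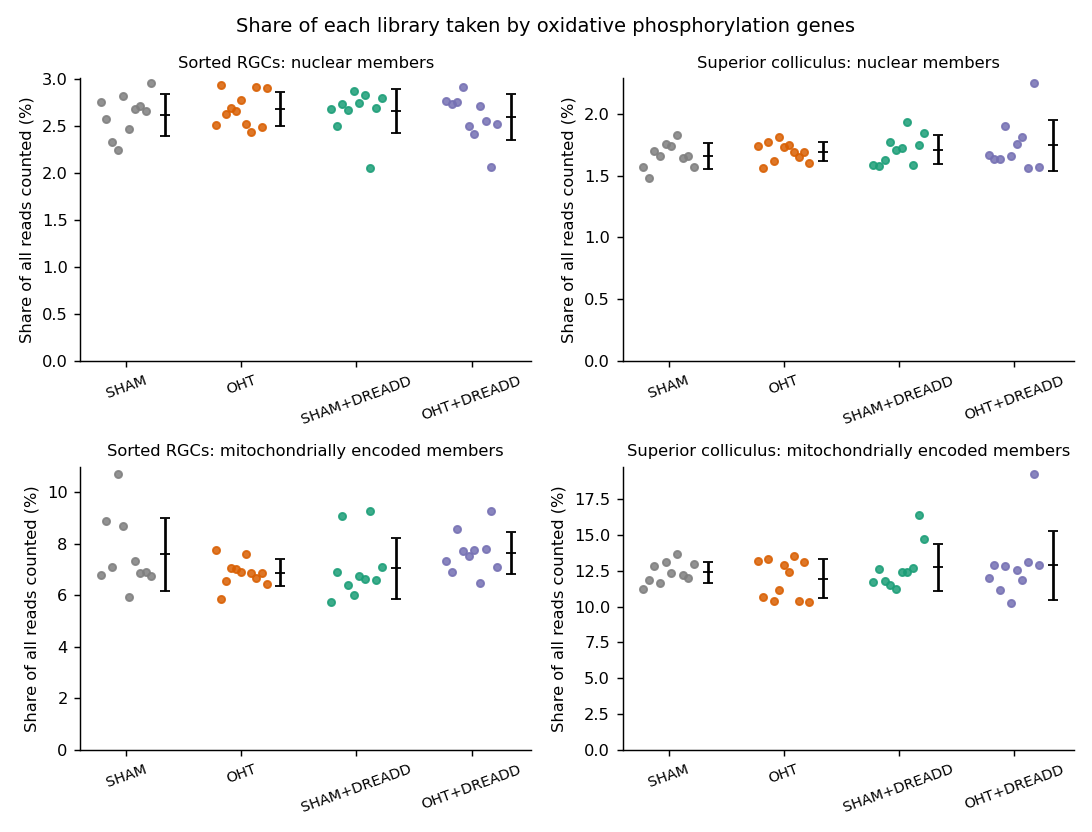
Percent of all counts in each library taken by nuclear (top) and mitochondrially encoded (bottom) members in RGCs (left) and SC (right). Each point is 1 sample, and the bar beside each group gives its mean and SD. The groups overlap in every panel, and OHT+DREADD replicate 9 stands highest in both SC panels, at 2.25% and 19.3%.

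The first question was whether OHT changed these genes in RGCs. Of 95 members tested, 0 were called (an adjusted p no higher than 0.1 together with a log2 fold change past 1.3 either way, edgeR's quasi-likelihood test with Benjamini-Hochberg adjustment), where 0.0686% of all 17491 genes were called, and DESeq2 called 0 as well. At an unadjusted p under 0.05, 1 member was higher (2.39% of all genes were) and 0 were lower (3.38% of all genes). Nuclear members were split evenly, with 41 above and 41 below 0 (47.2% of all genes above 0) and a median log2 fold change of −0.00. The 13 mitochondrially encoded members were all below 0, with a median of −0.19 against −0.02 over all genes, but they come from shared transcripts and the same libraries and none of them passed the test.

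*Cox7a2*, the widely expressed form of subunit 7A of complex IV, had the lowest p. Its level was 94.9 to 155 CPM in SHAM (median 133) and 104 to 222 CPM in OHT (median 177). The groups overlapped, although the average was higher in OHT (170 ± 37.4, SD, n = 11, against 133 ± 17.5 CPM, SD, n = 10), with a log2 fold change of 0.36 (SE 0.145, adjusted p = 0.464 by edgeR). *Cox6a1*, the liver-type subunit 6A, was at 409 to 571 CPM in SHAM (median 502) and 287 to 566 CPM in OHT (median 416), a log2 fold change of −0.23 (adjusted p = 1.00). *Sdhb*, the iron-sulfur subunit of complex II, ranged from 213.5 to 668 CPM in SHAM and from 217 to 393 CPM in OHT, and its log2 fold change of −0.27 moved to −0.14 without SHAM replicate 5, the highest library. *Ndufa9* and *Ndufb5*, accessory subunits of complex I, had log2 fold changes of 0.18 and 0.13. *Ndufa4l2* had 35 reads in SHAM and 7 in OHT (log2 fold change −2.17, adjusted p = 1.00).

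Among the mitochondrially encoded members, *mt-Nd4* had the lowest p: 3321 to 6535 CPM in SHAM (median 4201) and 2998 to 4276 in OHT (median 3961), a log2 fold change of −0.21 (SE 0.134, adjusted p = 1.00 by edgeR). The median of −0.19 over these members was −0.04 without SHAM replicates 2 and 4, the retinas of these groups among the 5 of highest rod marker share, and −0.11 without SHAM replicate 4 alone. The highest SHAM library held a mitochondrial share of 10.7%, above the highest OHT library with 7.75%.

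The second question was whether collicular stimulation changed these genes in RGCs with OHT. Of 93 members, 0 were called in OHT+DREADD against OHT by edgeR or by DESeq2 (0.0874% of all genes by edgeR). For the same comparison, however, the paper lists *Cox7a1* among the targets, at an FDR cut-off of 0.1, of its predicted regulator AGT. At an unadjusted p under 0.05, 7 members were higher (5.02% of all genes) and 3 lower (3.45%). With single libraries left out, the count higher ranged from 4 (without OHT+DREADD replicate 10) to 10 (without OHT replicate 2), and the count lower from 1 (without OHT replicate 5) to 10 (without OHT+DREADD replicate 4). Nuclear members lay 37 above and 44 below 0 (median −0.01, 50.3% of all genes above 0), and the 12 mitochondrially encoded members tested lay above 0 (median 0.22, against 0.00 over all genes). These medians come from the fit without sex, and 5 of 10 OHT+DREADD but 2 of 11 OHT mice were female.

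*Sdhb*, the iron-sulfur subunit of complex II, had the lowest p of the members. It was at 217 to 393 CPM in OHT (median 295) and 276.5 to 555 CPM in OHT+DREADD (median 397), so that the ranges overlapped, and its log2 fold change was 0.39 (SE 0.148, adjusted p = 0.326 by edgeR). *Sdhd*, a membrane anchor of the same complex, was at 66.9 to 136 CPM in OHT. In OHT+DREADD it was at 65.1 to 120 CPM in 7 retinas and at 231, 268.5 and 316 CPM in replicates 9, 2 and 10, above each of the other 38 RGC libraries. The log2 fold change of *Sdhd* was 0.59 (SE 0.229, adjusted p = 0.339 by edgeR). The flavoprotein gene *Sdha* and the anchor *Sdhc* make up the remainder of complex II, of which 2 members were above and 2 below 0.

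Complex IV held *Cox6a1*, at 287 to 566 CPM in OHT (median 416) and 446 to 767.5 CPM in OHT+DREADD (median 508). The ranges overlapped, the log2 fold change was 0.39 (SE 0.148, adjusted p = 0.333 by edgeR), and the highest libraries were again replicates 10, 9 and 2 with 767.5, 696 and 678 CPM. *Cox7a2* was lower, with 87.4 to 185 CPM in OHT+DREADD (median 128.5) against 104 to 222 CPM in OHT (median 177) and a log2 fold change of −0.36 (adjusted p = 0.543). *Atp5e*, the epsilon subunit in the stalk of complex V, had 28.4 to 66.7 CPM in OHT+DREADD against 41.7 to 88.4 CPM in OHT, a log2 fold change of −0.48 (adjusted p = 0.378). *Ndufc1*, an accessory subunit of complex I, had a log2 fold change of −0.44 (adjusted p = 0.579).

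*mt-Nd1* had the lowest p of the mitochondrially encoded members, with 12110 to 17480 CPM in OHT (median 16020) and 14780 to 25260 CPM in OHT+DREADD (median 18250). The ranges overlapped, and the log2 fold change was 0.31 (SE 0.129, adjusted p = 0.433 by edgeR). The median over the mitochondrially encoded members moved from 0.22 to 0.14 without the rod-rich retinas, among them OHT+DREADD replicates 8 and 9, and to 0.14 without replicate 9 alone. This comparison shares the OHT retinas with the one before, so that the values of the 2 comparisons are not independent.

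Replicates 2, 9 and 10 of OHT+DREADD were the 3 highest of all 41 retinas for *Cox5a*, *Sdhd*, *Cox7a2l*, *Atp5a1*, *Cox4i1*, *Uqcrfs1* and *Cox6a1*, 7 of 86 members with a mean of at least 10 CPM (8.14%). The same held for 270 of 7062 genes of that level (3.82%). This set of retinas was chosen after the values of *Sdhd* were seen, and the counts are given without a test.

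**Figure D3:**
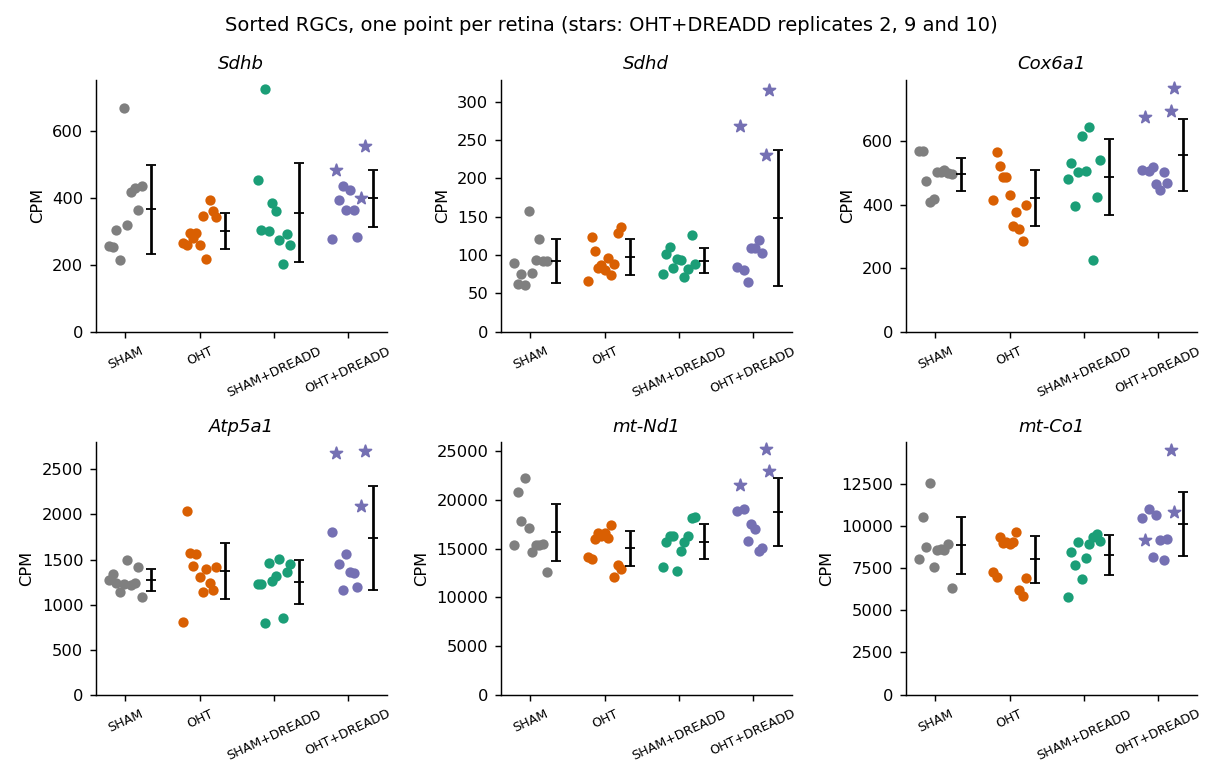
Level in CPM of single members in RGC samples of the 4 groups, with 1 point per retina and stars for OHT+DREADD replicates 2, 9 and 10. For *Sdhd* these stand at 231, 268.5 and 316 CPM, above the other 38 libraries, whereas the groups otherwise overlap.

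Stimulation without OHT, and OHT under stimulation, were compared in the same way. In SHAM+DREADD against SHAM RGCs, 0 of 94 members were called by edgeR or DESeq2 (0.0115% of all genes by edgeR), 0 were higher at an unadjusted p under 0.05 (2.2% of all genes) and 1 was lower (2.96%). Nuclear members lay 52 above and 29 below 0 (median 0.06, 50% of all genes above 0), mitochondrially encoded ones 2 above and 11 below (median −0.08). The member of lowest p was *Ndufa4l2*, with 35 reads in 3 SHAM retinas and 0 reads in the 10 SHAM+DREADD retinas. Of the 35 reads, 19 lay in a single library, and its adjusted p was 0.259 by edgeR. *Cox7c* and the X-linked *Ndufa1*, small subunits of complexes IV and I, had log2 fold changes of 0.30 and 0.27. For both, 1 SHAM+DREADD retina, replicate 3, was the highest with 203 and 280 CPM. *Cox7a2* had a log2 fold change of 0.21, *Atp5s*, a coupling factor of complex V, of −0.21 and the sparse *Cox7a1* of −0.91, while *mt-Nd6* had 0.24 and *mt-Nd4l*, at 0 to 1.48 CPM in all libraries, −0.82. With sex in the model the medians were −0.01 for nuclear and 0.02 for mitochondrially encoded members. That model can hardly tell sex and group apart, since all SHAM+DREADD mice and only 2 SHAM mice were female.

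In OHT+DREADD against SHAM+DREADD RGCs, 0 of 92 members were called by edgeR or DESeq2 (0.041% of all genes by edgeR), with 3 higher (4.05% of all genes) and 2 lower (3.18%) at an unadjusted p under 0.05. Nuclear members lay 34 above and 46 below 0 (median −0.07, 48.4% of all genes above 0) and mitochondrially encoded ones 8 above and 4 below (median 0.11). *Sdhd* had the lowest p, with 71.1 to 126.5 CPM in SHAM+DREADD and a log2 fold change of 0.66 (SE 0.242, adjusted p = 0.356 by edgeR). *Atp5a1* was at 796 to 1506 CPM in SHAM+DREADD and 1158 to 2705 CPM in OHT+DREADD, a log2 fold change of 0.46 (adjusted p = 0.502). *Uqcrfs1*, the Rieske iron-sulfur protein of complex III, had a log2 fold change of 0.39, the X-linked *Ndufa1* of −0.55 and *Atp5k*, a membrane subunit of complex V, of −0.50, all with overlapping groups. *Atp5e* followed with −0.42, and the mitochondrially encoded members of lowest p were *mt-Co1* (0.28) and *mt-Nd6* (−0.14). With sex in the model, 0 members were left at an unadjusted p under 0.05 in either direction.

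In SC, the effect of OHT was examined first. Of 94 members, 0 were called in OHT against SHAM (threshold of 0.5 on the log2 scale in this tissue) by edgeR or DESeq2, where edgeR called 0.0193% of all genes. At an unadjusted p under 0.05, 5 members were higher (2.77% of all genes) and 3 were lower (2.18%). Nuclear members lay 59 above and 22 below 0 (median 0.05, 49.7% of all genes above 0), and mitochondrially encoded ones 7 above and 6 below (median 0.01).

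Complex I accessory subunits had the lowest p. *Ndufa12* was at 98.4 to 196 CPM in SHAM (median 140.0) and 127 to 231.5 CPM in OHT (median 190), a log2 fold change of 0.34 (SE 0.115, adjusted p = 0.956 by edgeR). *Ndufb8* was at 216 to 290 CPM in SHAM (median 243) and 215 to 380.0 CPM in OHT (median 298), a log2 fold change of 0.23 (SE 0.0790, adjusted p = 0.956). *Ndufb11*, which is X-linked, was at 67.5 to 97.3 CPM in SHAM and 82.7 to 109 CPM in OHT, a log2 fold change of 0.19. All 3 overlapped between groups. *Atp5g1* (−0.26), *Cox6b2* (−0.24) and *Cox4i2* (−0.80, 2.19 against 1.24 CPM on average) were the nuclear members of lowest p below 0. Of the mitochondrially encoded members, *mt-Co3* had a log2 fold change of 0.13 and *mt-Nd4* of −0.11. The count of members higher at an unadjusted p under 0.05 was 21 without OHT replicate 11 and 4 to 21 over all single libraries left out.

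Stimulation under OHT was the main collicular comparison. In OHT+DREADD against OHT, 0 of 94 members were called by edgeR or DESeq2 (0.0956% of all genes by edgeR), with 2 higher (4.31% of all genes) and 1 lower (3.08%) at an unadjusted p under 0.05. Nuclear members lay 58 above and 23 below 0 (median 0.06, 54.2% of all genes above 0) and mitochondrially encoded ones 9 above and 4 below (median 0.09). These medians too come from the fit without sex, with 5 of 10 OHT+DREADD and 2 of 11 OHT mice female. Without OHT+DREADD replicate 9, the library with the highest shares and oligodendrocyte markers, 29 nuclear members were above 0 and the medians were −0.03 and −0.00.

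*Atp5g1* was at 27.7 to 36.8 CPM in OHT (median 29.9) and 27.4 to 60.8 CPM in OHT+DREADD (median 35.0), a log2 fold change of 0.29 (SE 0.117, adjusted p = 0.620 by edgeR). *Uqcrfs1* was at 59.3 to 128 CPM in OHT (median 117) and 107 to 201 CPM in OHT+DREADD (median 125), a log2 fold change of 0.30 (SE 0.121, adjusted p = 0.620). In both cases the highest value was that of replicate 9. *Cox7b2* had few reads (0.440 against 1.44 CPM on average, log2 fold change −1.56, adjusted p = 0.559). *mt-Cytb* was at 12390 to 21790 CPM in OHT and 16140 to 39880 CPM in OHT+DREADD (log2 fold change 0.21). Replicate 9 was the highest here too, and the log2 fold change was 0.06 without it. *mt-Nd2* had a log2 fold change of −0.17. The muscle forms *Cox6a2* and *Cox7a1* had 0.85 and −0.38, and *Ndufa12*, the first member of the previous comparison, had −0.21. For this comparison the paper lists *Cox6a2* among the targets, at an FDR cut-off of 0.1, of its predicted regulators insulin and CREB.

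In SHAM+DREADD against SHAM SC, most members lay above 0. Of 93 members, 0 were called by edgeR or DESeq2 (0.0842% of all genes by edgeR), and at an unadjusted p under 0.05, 11 were higher (4.62% of all genes) and 2 lower (4.92%). Nuclear members lay 70 above and 10 below 0 and the 13 mitochondrially encoded ones above 0 (medians 0.10 and 0.11, against 0.00 over all genes, of which 51.2% were above 0). By complex, 31 of 36 members of complex I, 2 of 4 of complex II, 8 of 8 of complex III, 13 of 15 of complex IV and 16 of 17 of complex V among the nuclear ones were above 0. With sex in the model, however, 43 nuclear members were above 0, both medians were 0.01 and 0 members were higher at an unadjusted p under 0.05, and all 10 SHAM+DREADD mice were female against 2 of 10 SHAM mice. The group difference in that model rests on the 2 female SHAM mice, so that it can hardly tell sex and group apart. Without SHAM+DREADD replicates 9 and 10, which held the highest mitochondrial shares of the group, the medians were 0.06 and 0.04 and 1 member was higher at that p.

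*Cox7b*, an X-linked subunit of complex IV, was at 288 to 359.5 CPM in SHAM (median 324) and 304 to 425 CPM in SHAM+DREADD (median 358.5). Its log2 fold change was 0.17 (SE 0.0659, adjusted p = 0.416 by edgeR). *Ndufb8* was at 216 to 290 and 238 to 359 CPM (log2 fold change 0.19, adjusted p = 0.438), and *mt-Co1* at 7731 to 9250 CPM in SHAM and 7504 to 13350 CPM in SHAM+DREADD (log2 fold change 0.21, SE 0.0822, adjusted p = 0.428 by edgeR). *Cox6a2*, the muscle form of subunit 6A, was low in both groups (0.716 to 2.33 and 0.913 to 5.55 CPM, log2 fold change 0.93, adjusted p = 0.416). *Ndufs3*, a core subunit of complex I, lay below 0 (−0.23, adjusted p = 0.491), as did *Cox4i2* (−0.80) and *Ndufs1*, another core subunit (−0.07). The groups overlapped for each of these genes.

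In OHT+DREADD against SHAM+DREADD SC, 0 of 93 members were called by edgeR or DESeq2 (0.0192% of all genes by edgeR), with 0 higher (4.46% of all genes) and 2 lower (2.67%) at an unadjusted p under 0.05. *Ndufc1* was at 167 to 241 CPM in SHAM+DREADD and 135 to 225 CPM in OHT+DREADD (log2 fold change −0.20, SE 0.0913, adjusted p = 0.693 by edgeR). *mt-Nd4l* had a log2 fold change of −0.18 and *Ndufs3* of 0.24. Further members named by low p were *Uqcrc1*, a core protein of complex III (0.16), *Atp5a1* (0.14), *mt-Cytb* (0.10), *Uqcrh* (−0.13) and *Cox7a1* (−0.50), with overlapping groups in each case. The nuclear members lay 51 above and 29 below 0 (51.9% of all genes above 0), but 17 were above 0 without OHT+DREADD replicate 9, and 11 members were then lower at an unadjusted p under 0.05.

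**Figure D4:**
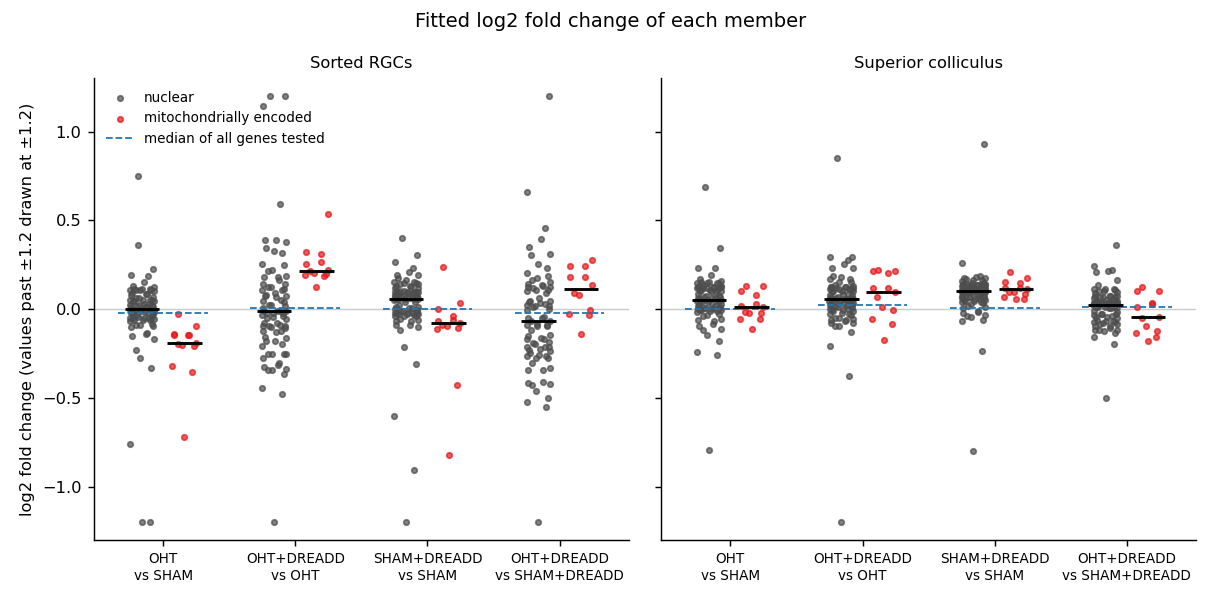
Fitted log2 fold change of each member in the 4 comparisons of RGCs (left) and SC (right), with nuclear and mitochondrially encoded members in separate colours and values past 1.2 in size drawn at 1.2. No point was called. In SC, the comparison of SHAM+DREADD with SHAM lies mostly above 0, with medians of 0.10 and 0.11. It is centred at 0.01 with sex in the model, which can hardly tell sex and group apart here.

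Whether the effect of stimulation differed with OHT was tested as an interaction over all 4 groups. In RGCs, 1 of 95 members was called, *Ndufa4l2*, with an interaction of 5.73 on the log2 scale (SE 1.78, adjusted p = 0.0952 by edgeR), where 2.4% of all 19234 genes were called. At an unadjusted p under 0.05, 3 members were above 0 (5.46% of all genes) and 2 below (4.6%). *Ndufa4l2* had 35 reads in 3 SHAM, 7 reads in 2 OHT, 0 in SHAM+DREADD and 14 reads in 1 OHT+DREADD library, so that the fitted value rests on 56 reads in 6 retinas and a group at 0, and it is no bound on a fold change. With sex in the model its adjusted p was 0.129. *Cox7a2* had an interaction of −0.58 (SE 0.230, adjusted p = 0.255), and mitochondrially encoded members had a median of 0.32, with 12 of 13 above 0 (50.6% of all genes). In SC, 0 of 94 members were called (0.0433% of all genes), 0 were higher and 6 lower at an unadjusted p under 0.05 (3.97% of all genes in either direction). Of these, *Ndufa12* had an interaction of −0.48 (SE 0.187, adjusted p = 0.507) and *Uqcrh* of −0.29.

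The members also varied from library to library within groups. Over members with a mean of at least 10 CPM, the coefficient of variation across the 41 libraries had a median of 22.7% for 76 nuclear members in RGCs (11.2 to 72.5%) and of 13.9% for 77 in SC (8.25 to 51.6%). In RGCs the summed mitochondrially encoded members correlated with the rod markers (Pearson's r = 0.495, Spearman's coefficient = 0.319, n = 41). Without the 2 libraries farthest in rod markers r was 0.289, and within groups it was 0.623 in SHAM, −0.123 in OHT, 0.13 in SHAM+DREADD and 0.744 in OHT+DREADD. With the share of counts on nuclear copies of mitochondrial DNA, r of the same sum was higher, 0.667 (Spearman's coefficient = 0.639). With neuron markers it was −0.06 over all libraries but 0.732 within OHT, and with RGC markers −0.048 and 0.69. The summed nuclear members correlated with rod markers at r = −0.523 (Spearman's coefficient = −0.396, and r = −0.415 without the 2 farthest libraries). Within groups the value was −0.572 in SHAM, 0.161 in OHT, −0.828 in SHAM+DREADD and −0.603 in OHT+DREADD. Rod markers were not particular in this. Over all libraries, r of the nuclear sum was 0.531 with neuron, −0.505 with mural and −0.497 with astrocyte markers. It was 0.046 with RGC, −0.215 with Muller glia and −0.007 with oligodendrocyte markers. With the number of genes detected, r of the nuclear sum was −0.649 (Spearman's coefficient = −0.598), and −0.392 to −0.939 within groups. Nuclear and mitochondrially encoded sums showed little correlation in RGCs (r = 0.06, Spearman's coefficient = −0.033).

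In SC, the sums of nuclear and mitochondrially encoded members varied together (r = 0.785, Spearman's coefficient = 0.501, and 0.51 without the 2 farthest libraries, n = 41). The mitochondrially encoded sum followed the oligodendrocyte markers (r = 0.835, Spearman's coefficient = 0.714, and 0.658 without the 2 farthest libraries). Within groups this r was 0.333 in SHAM, 0.834 in OHT, 0.748 in SHAM+DREADD and 0.946 in OHT+DREADD. The nuclear sum correlated with the same markers at r = 0.715 (Spearman's coefficient = 0.449), with 0.472 without the 2 farthest libraries. Within groups that r was 0.293 in SHAM, 0.413 in OHT, 0.036 in SHAM+DREADD and 0.962 in OHT+DREADD, which holds replicate 9. Points of these relations share their library, and the part of cell composition in the differences between groups was not tested.

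**Figure D5:**
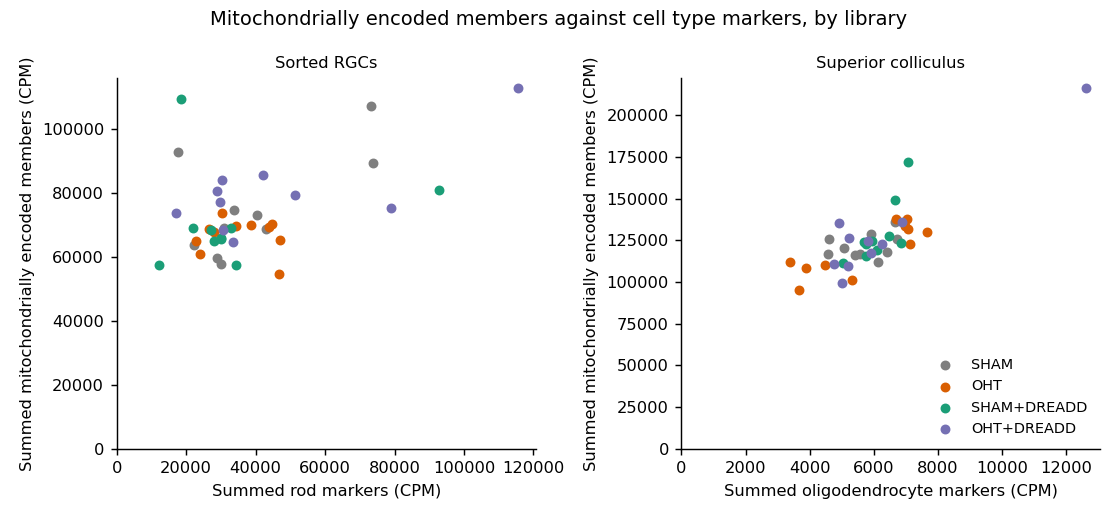
Summed mitochondrially encoded members against summed rod markers in RGC libraries (left) and against summed oligodendrocyte markers in SC libraries (right), both in CPM, with 1 point per library coloured by group. In SC the points lie along a rising line (r = 0.835), with OHT+DREADD replicate 9 at 12620 CPM of oligodendrocyte markers at its end, and in RGCs the relation is looser (r = 0.495).

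Genes that serve the same pathway, and nuclear copies of mitochondrial DNA, were followed as lists outside the rule. None of the 8 lists had a called gene in the 8 comparisons of group pairs by edgeR. Of 44 assembly factors, which build the complexes, 10 were above 0 in OHT+DREADD against OHT RGCs (50.3% of all genes). At an unadjusted p under 0.05, 1 was higher and 2 were lower (5.02% and 3.45% of all genes). *Coa3*, a complex IV assembly factor, had a log2 fold change of −0.71 (adjusted p = 0.363 by edgeR). Of 80 mitochondrial ribosomal proteins tested, 29 were above 0 in the same comparison, and *Mrps7* had a log2 fold change of 0.71 (adjusted p = 0.199). *Tfam* and *Tfb2m*, which serve transcription of mitochondrial DNA, had log2 fold changes of 0.88 and 2.37 (adjusted p = 0.596 and 0.524). Above 0 in the same comparison were also 9 of 16 citric acid cycle genes and 11 of 21 genes for mitochondrial DNA copying and expression. So were 5 of 13 regulators of mitochondrial biogenesis, 5 of 17 glycolysis genes and 2 of 7 subunits and carriers outside the rule. Of the nuclear copies of mitochondrial DNA, 6 of 6 were above 0. In SC, 15 of 16 citric acid cycle genes were above 0 in OHT+DREADD against OHT (54.2% of all genes), with 0 at an unadjusted p under 0.05 in either direction, and 14 were above 0 without OHT+DREADD replicate 9. With sex in the model, 14 of the 16 were above 0, with 3 higher and 0 lower at that p. Their median log2 fold change was 0.10 in the main fit and 0.15 with sex in the model. In SHAM+DREADD against SHAM SC, 58 of 79 mitochondrial ribosomal proteins were above 0 (51.2% of all genes), with 6 higher at that p (4.62% of all genes). With sex in the model, which can hardly tell sex and group apart in this comparison, 40 of the 79 were above 0 and 1 was higher at that p. In the RGC interaction, 1 gene of these lists was called, where 2.4% of all 19234 genes were called. This was the regulator *Ppara* (adjusted p = 0.0269 by edgeR), which had no read in any OHT or SHAM+DREADD retina.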

How the data were processed

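Bulk RNA was sequenced from sorted RGCs (Smart-Seq2) and SC lysates (QuantSeq 3′) in 41 samples per tissue. The authors deposited untransformed counts per Ensembl gene identifier, made by checking reads with FastQC 0.11.7, aligning them to mm10 with HISAT2, discarding reads with several alignments, and counting with SAMtools 1.5 and HTSeq 2.7.14, with edgeR 3.14 for their tests. The annotation release and strand setting are not given in the sources used here. Columns of other samples numbered 0. Reads were counted without molecular identifiers, so that depth limits the precision of low genes most.

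Members were chosen by symbol, and biotype, length and position were taken from GENCODE M21. Groups came from sample titles. The SC sample SHAM replicate 1 carries a conflicting treatment label and was kept as SHAM. Each comparison was fitted on its 2 groups over genes that had above 5 reads in 2 or more samples, in R 4.3.3 with edgeR 4.0.16 (TMM, estimateDisp, glmQLFit, glmQLFTest), with Benjamini-Hochberg adjustment over every gene tested. The study's thresholds defined a call: adjusted p no higher than 0.1, and a log2 fold change past 1.3 (RGCs) or 0.5 (SC) either way. At these thresholds the paper reported many times more changed genes than were called here, in each comparison for which it gives a count. Called here were 12 genes in OHT against SHAM RGCs, and 15 each in OHT+DREADD against OHT RGCs and SC. A count of 0 members called is therefore a result of the fit used here and not of the paper's. The interaction was fitted on all 4 groups. CPM use TMM factors. SE is the log2 fold change divided by the square root of F. Nothing in the labels ties replicates to separate batches, and p-values measure the spread between samples of a group.

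Named in full were, per tissue, the member of highest level in each complex, all mitochondrially encoded members, isoforms known from other tissues, per comparison the called members and those of lowest p in each direction (3 nuclear and 1 mitochondrially encoded), and of each related list up to 2 genes of lowest p. Not every gene that this rule covers is spelled out. Members and lists were chosen with earlier results of these data known. Alternatives were RLE factors, other filters, DESeq2 1.42.0, sex as a covariate, 1 joint fit of the groups, a replicate block, a threshold of 0.05, leaving out the mitochondrially encoded genes, and leaving out libraries. Leaving out the rod-rich retinas, SC SHAM+DREADD replicates 9 and 10, and, in the comparison with SHAM+DREADD, OHT+DREADD replicate 9 was added after seeing the data, as were the alternative counts for the related lists. The fit was tested on simulated data. Summaries used Python 3.11.15 with pandas 2.3.3, and plots matplotlib 3.10.9.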

Additional observations from a re-analysis of the deposited data

Results flagged for a closer look

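In groups of 10 samples, 22 of 123 sets of values held a library that lay far from the rest by Dixon's criterion. For independent sets of normal values, chance alone gives this in about 1 in 20. The sets here share libraries, so the count cannot be tested against that rate. In SC, OHT+DREADD replicate 9 was the highest for the nuclear share (2.25%) and the mitochondrially encoded share (19.3%). Within its group it also was the highest for *Atp5g1* (60.8 CPM), *Cox7b* (631 CPM), *Ndufb11* (151.0 CPM), *Ndufb8* (375 CPM), *Uqcrfs1* (201 CPM), *mt-Co1* (17150 CPM), *mt-Co3* (6342 CPM) and *mt-Cytb* (39880 CPM). Its oligodendrocyte markers were the highest of all SC libraries at 12620 CPM, and their part in these values was not tested.

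In RGCs, SHAM+DREADD replicate 3 was the highest of its group for *Atp5k* (334 CPM), *Cox7c* (202.7 CPM), *Ndufa1* (279.7 CPM), *Ndufc1* (861 CPM) and *Sdhb* (726 CPM). SHAM+DREADD replicate 8 had the lowest nuclear share (2.05%) and the lowest *Cox7a2* (74.8 CPM) of its group, SHAM replicate 5 the highest *Sdhb* (668 CPM) among SHAM, and OHT+DREADD replicate 9 the highest *mt-Co1* (14530 CPM) in its group. In SC, SHAM+DREADD replicate 8 had the lowest *Uqcrh* (405 CPM), SHAM+DREADD replicate 9 the highest *mt-Nd4* (61520 CPM) and SHAM replicate 7 the highest *mt-Nd4l* (388 CPM) of its group.

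*Ndufa4l2* in RGCs was called by the interaction test (adjusted p = 0.0952 by edgeR, interaction of 5.73 on the log2 scale). The same test called 2.4% of all genes. The value rests on 56 reads in 6 of 41 libraries, with 0 reads in SHAM+DREADD and reads in 1 OHT+DREADD library. The call was lost with filterByExpr, with sex as a covariate and at a stricter adjusted p. With so few reads, the test cannot decide whether the effect of stimulation on this gene differed with OHT.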

How the results depend on the processing

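With 0 members called in each pairwise comparison, the count stayed at 0 under RLE factors, filterByExpr, DESeq2, an adjusted p of 0.05, sex as a covariate and the replicate block. It also stayed at 0 with each library left out in turn in OHT against SHAM and OHT+DREADD against OHT of both tissues, the comparisons in which this was run in full. Without a filter on low counts it was 1 in OHT+DREADD against OHT, 2 in SHAM+DREADD against SHAM and 1 in OHT+DREADD against SHAM+DREADD RGCs. These were *Cox7b2* and *Ndufa4l2*, with 24 and 56 reads in all RGC libraries. The 1 member called in the RGC interaction was 0 with filterByExpr, with sex as a covariate and at an adjusted p of 0.05. Directions turned for *Atp5s* in SHAM+DREADD against SHAM RGCs (0.21 with sex as a covariate) and for *mt-Cytb* in OHT+DREADD against SHAM+DREADD SC (−0.063 with sex as a covariate, −0.052 without OHT+DREADD replicate 9). Replicate numbers did not pair the samples: deviations of samples with the same number had median correlations of −0.013 to 0.017 in RGCs and 0.007 to 0.072 in SC, and at most 3 of 10 samples of a comparison correlated best with their own number. With the replicate block, the median of mitochondrially encoded members was −0.12 in OHT against SHAM and 0.20 in OHT+DREADD against OHT RGCs, and no call changed. With libraries left out, the median of mitochondrially encoded members in OHT against SHAM RGCs ranged from −0.22 to −0.11. Depth limits *mt-Nd3*, *mt-Nd4l* and the sparse isoforms in RGCs, where a few reads set each value, and changes of members under the thresholds of 1.3 and 0.5 could not be called.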
